A study of Mus musculus with 2 samples.

Results

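NRF2 (encoded by Nfe2l2) and its inhibitor KEAP1 govern a set of antioxidant and detoxifying genes, and 10 genes of this pathway are described here in a pair of RNA-seq libraries from the mouse stomach. The 10 were chosen by name: the regulators Nfe2l2 and Keap1 and the 8 targets Nqo1, Gclc, Gclm, Txnrd1, Hmox1, Srxn1, Ptgr1 and Slc7a11. They were chosen after several detoxifying genes had been seen at much lower levels in the sorted cells, so their ratios between the libraries are given as a description and support nothing. All 10 were found by symbol among the 37681 gene identifiers of the deposited counts, and all 10 passed the minimum for a measured gene (10 counts in either library), as did 16682 genes in all.

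The study asked about the origin of histamine-making cells in the gastric corpus, the main acid-secreting region of the stomach. RNA came from the stomach of C57BL/6 mice with the Hdc-CFP transgene, whose cyan fluorescence stands for activity of Hdc, the histidine decarboxylase gene. The sorted library was made from cells positive for the reporter (Hdc-CFP+ cells) and the depleted library from corpus epithelium without them (depleted cells). The sample label of the sorted cells names the stomach, and only that of the depleted cells names the corpus. Strain and genotype were the same in both groups, with 1 library per group. The sources used here do not give age, number of mice, treatment or the make-up of the transgene.

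NRF2 is a transcription factor that pairs with small MAF proteins at antioxidant response elements in DNA. In unstressed cells KEAP1 binds NRF2 and hands it to the CUL3 ubiquitin ligase, so that NRF2 protein is short-lived. Oxidants and electrophiles modify cysteines of KEAP1, NRF2 then accumulates, and its targets make glutathione, reduce thioredoxin, detoxify quinones and alkenals and break down haem. Much of this control acts on NRF2 protein, which mRNA counts do not measure.

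The promoters of 4 of these genes are shown because Nqo1 and Ptgr1 had the lowest ratios of sorted to depleted level, Srxn1 had the highest, and Nfe2l2 encodes the factor itself. Each window runs from 250 bases before to 50 bases after the start of the gene, read 5′ to 3′ on the gene's strand, from RefSeq on GRCm38.p6. The windows lie at chr2:152105274-152105573 (plus strand) for Srxn1, chr2:75704614-75704913 (minus strand) for Nfe2l2, chr8:107403156-107403455 (minus strand) for Nqo1 and chr4:58987029-58987328 (minus strand) for Ptgr1. The counts were made on the older mm9 build and were not tied to these positions. Capitals mark matches, on either strand, to the core of the antioxidant response element, TGACNNNGC, or to the core TGANTCAGC bound by heterodimers of NRF2-family and small MAF proteins. A site can match both cores.
Srxn1: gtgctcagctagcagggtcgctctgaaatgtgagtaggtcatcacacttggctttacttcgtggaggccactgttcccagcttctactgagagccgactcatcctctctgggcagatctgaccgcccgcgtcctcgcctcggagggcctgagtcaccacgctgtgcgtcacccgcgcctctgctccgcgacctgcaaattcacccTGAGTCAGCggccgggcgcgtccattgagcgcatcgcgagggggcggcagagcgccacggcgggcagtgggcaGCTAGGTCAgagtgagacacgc
Nfe2l2: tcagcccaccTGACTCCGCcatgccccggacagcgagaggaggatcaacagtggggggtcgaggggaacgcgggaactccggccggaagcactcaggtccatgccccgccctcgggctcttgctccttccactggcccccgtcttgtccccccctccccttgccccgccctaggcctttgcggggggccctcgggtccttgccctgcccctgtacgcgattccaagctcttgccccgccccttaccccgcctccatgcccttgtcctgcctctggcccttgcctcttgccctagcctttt
Nqo1: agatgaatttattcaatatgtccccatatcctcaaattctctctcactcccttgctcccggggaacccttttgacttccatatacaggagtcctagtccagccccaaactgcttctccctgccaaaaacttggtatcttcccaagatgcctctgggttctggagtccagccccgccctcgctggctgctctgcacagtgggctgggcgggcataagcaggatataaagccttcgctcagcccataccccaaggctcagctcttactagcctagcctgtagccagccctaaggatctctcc
Ptgr1: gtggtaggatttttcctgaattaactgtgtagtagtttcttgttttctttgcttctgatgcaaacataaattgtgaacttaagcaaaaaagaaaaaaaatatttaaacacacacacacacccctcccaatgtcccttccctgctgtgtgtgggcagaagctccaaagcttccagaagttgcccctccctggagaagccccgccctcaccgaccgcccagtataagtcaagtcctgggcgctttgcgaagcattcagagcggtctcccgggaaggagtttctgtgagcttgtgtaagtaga

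The Srxn1 window held 1 match to each core. TGAGTCAGC began 45 bases before the start site on the strand shown, and TGACCTAGC lay after the start site on the other strand. The Nfe2l2 window held TGACTCCGC, beginning 240 bases before the start site. Windows were found by symbol for 8 of the 10 genes, all but Gclc and Hmox1, and numbered 10 because Txnrd1 had 3. Of the windows not shown, that of Gclm held TGACGGTGC on the other strand and 1 of the 3 of Txnrd1 held TGACAAAGC on the other strand. In all, 4 of the 10 windows (40.0%) held either core, beside 13.0% of all 32851 windows of the same length. TGACNNNGC alone was found in 12.4% of all windows and TGANTCAGC in 1.19%. No match was found in the windows of Keap1, Nqo1, Ptgr1 or Slc7a11. A match is a run of letters and not a shown binding site, and elements that lie outside the window are not seen.

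Gene counts totalled 10736538 in Hdc-CFP+ cells and 50928524 in depleted cells, a 4.74-fold gap in depth. Levels are normalised CPM, counts divided by a library size that was scaled with edgeR's trimmed mean of M-values (TMM), and a fold is the ratio of the levels of the libraries. Brackets give 95% intervals, exact for folds and log-normal for ratios of genes within a library, which cover counting error only. Each value comes from 1 library, so no p-value is given and the comparisons are of these libraries, not of the populations. Measured genes were called lower or higher at a fold of 2 or more with an interval clear of 1. Of all 16682 measured genes, 24.3% were called lower in the sorted library and 20.5% higher. At 4-fold or more, 14.0% were lower and 13.2% higher.

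Hdc stood at 8422 CPM in Hdc-CFP+ and 22.0 CPM in depleted cells, 383-fold higher [359 to 408], in the direction of the labels, and all 4 listed genes that mark enterochromaffin-like (ECL) cells, which secrete histamine, were called higher. Markers of the neighbouring epithelial cells and of macrophages were lower. The 3 measured surface mucous genes were 40.4-fold to 47.7-fold lower, and their summed level was 3313 CPM in Hdc-CFP+ and 153433 CPM in depleted cells. Tff1, of the same list, was at 0 counts in both. Of its exon bases 31.4% overlap an antisense gene, Gm15318, and its 0 is not read as absence of expression. The 5 parietal cell genes were 3.35-fold to 6.58-fold lower, and 3 of 4 chief cell genes, 3 of 3 mucous neck cell genes and 4 of 4 tuft cell genes were called lower. The 8 macrophage genes were 37.4-fold to 1433-fold lower, with a summed level of 10.4 CPM in Hdc-CFP+ and 2912 CPM in depleted cells. Fibroblast genes summed to 0.395 and 15.1 CPM, with Col3a1 at 0 in the sorted library. Endothelial genes summed to 0.711 and 4.33 CPM, with Cdh5 at 0 in the sorted library, and 2 red blood cell genes to 0.316 and 0.578 CPM. Pancreatic acinar genes went the opposite way, with 4 of 4 measured called higher, summed levels of 1480 and 4.03 CPM, and Cpa1 at 0 in both libraries.

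Of the pathway genes, 8 were lower in the sorted library and the other 2, Keap1 and Srxn1, stood at nearly the same level in both. By the call rule 8 of 10 were lower and 0 higher, beside the 24.3% and 20.5% of all measured genes. At 4-fold or more, 6 of the 10 were lower, beside 14.0%. The median log2 ratio of the 10 was -3.04, beside -0.16 over all measured genes. Since the genes were chosen with this comparison known, nothing is read from these counts. In bulk libraries fewer cells of a type that expresses a gene and less RNA of it per cell cannot be told apart. What the shifts in marker genes given above contribute to the ratios below was not tested. The sorted library also held RNA of genes that mark other cells, such as Gkn1 at 1506 CPM and Pgc at 14616 CPM. What RNA from such cells contributes to the sorted levels, ranks and shares below was not tested either.

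**Figure D1:**
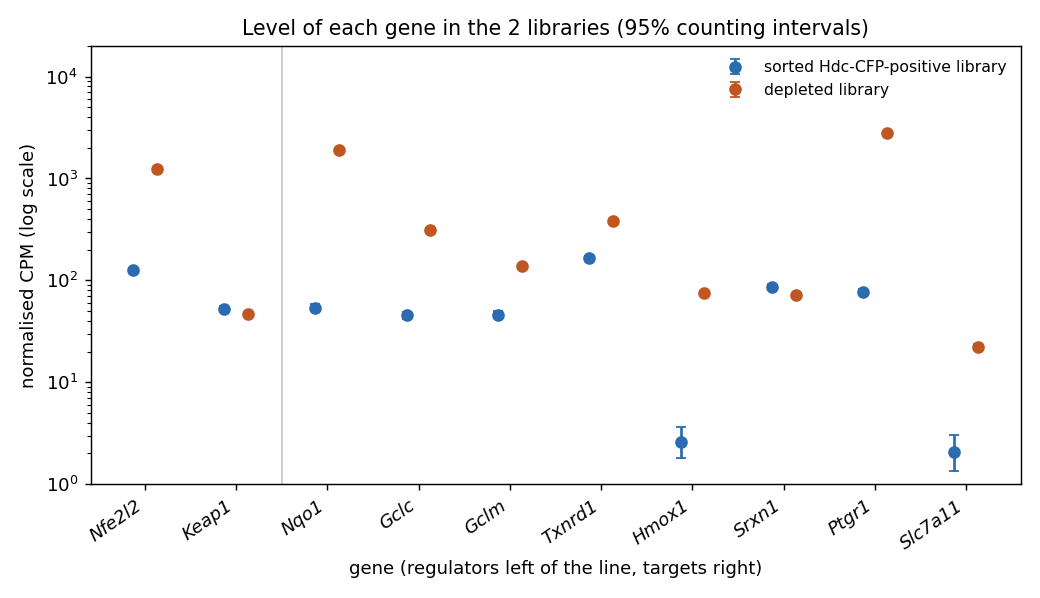
Normalised CPM (log axis) of the 2 regulators and 8 targets in the sorted Hdc-CFP-positive library and the depleted library, with 1 point per library and 95% Poisson intervals for counting error, mostly smaller than the points. The points of Keap1 and Srxn1 lie close together, while those of Nqo1, Ptgr1 and Hmox1 lie furthest apart, at 35.6-fold, 36.1-fold and 28.8-fold.

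The regulators differed from each other. Nfe2l2 (ENSMUSG00000015839) stood at 126 CPM in Hdc-CFP+ and 1235 CPM in depleted cells, from 1597 and 53353 counts. Its level was 9.78-fold lower [9.31 to 10.3], and 9.06% of measured genes had a lower ratio of sorted to depleted level. Keap1 (ENSMUSG00000003308) stood at 52.4 CPM in Hdc-CFP+ and 46.5 CPM in depleted cells, from 663 and 2010 counts. Its level was 1.13-fold higher [1.03 to 1.23], short of the 2-fold mark, and between 1.12-fold and 1.56-fold higher over the 7 scalings tried. Of its exon bases 10.9% overlap an antisense gene, Gm16754, and without a stated strand setting reads of the pair cannot be told apart there.

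The ratio of Nfe2l2 to Keap1 within a library does not depend on how the libraries are scaled. Per length of exon, it was 2.98 [2.72 to 3.26] in Hdc-CFP+ and 32.8 [31.4 to 34.3] in depleted cells. The depleted library thus held 11.0 [9.96 to 12.2] times as much Nfe2l2 per Keap1 as the sorted library. Nfe2l2 ranked above 99.4% of measured genes by per-length level in the depleted library and above 93.3% in the sorted library, while Keap1 ranked above 69.2% and 75.0%.

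The quinone and alkenal reductases had the largest differences of the targets. Nqo1 (ENSMUSG00000003849), which reduces quinones without forming semiquinone radicals, stood at 53.9 CPM in Hdc-CFP+ and 1917 CPM in depleted cells, from 682 and 82854 counts. Its level was 35.6-fold lower [33.0 to 38.4]. Ptgr1 (ENSMUSG00000028378), which encodes prostaglandin reductase, an enzyme that inactivates leukotriene B4 and reduces reactive alkenals, stood at 77.5 CPM in Hdc-CFP+ and 2796 CPM in depleted cells, from 981 and 120840 counts. Its level was 36.1-fold lower [33.9 to 38.4]. The intervals of their folds overlap, and 4.82% and 4.79% of measured genes had a lower ratio of sorted to depleted level. Within the libraries the per-length ratio of Ptgr1 to Nqo1, chosen after their values were seen, was 0.973 [0.882 to 1.07] in Hdc-CFP+ and 0.986 [0.978 to 0.995] in depleted cells, a change of 1.01 [0.919 to 1.12] that counting error covers. The folds of the surface mucous genes named above, 47.1-fold [46.4 to 47.8] for Gkn1, 47.7-fold [47.0 to 48.5] for Gkn2 and 40.4-fold [39.5 to 41.4] for Muc5ac, were larger than those of Nqo1 and Ptgr1, with intervals that do not overlap them.

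Hmox1 (ENSMUSG00000005413), the inducible haem oxygenase, stood at 2.61 CPM in Hdc-CFP+ and 75.2 CPM in depleted cells, from 33 and 3251 counts. It was 28.8-fold lower [20.5 to 42.0], with an interval that overlaps that of Nqo1. Macrophages that take up red blood cells are known for haem oxygenase, and in these libraries the macrophage genes Csf1r, Lyz2 and Cd68 were 1433-fold [614 to 4413], 528-fold [330.0 to 907] and 37.4-fold [24.9 to 59.1] lower. The part of those cells in the Hmox1 difference was not tested. Hmox2, the constitutive haem oxygenase, stood at 34.0 CPM in Hdc-CFP+ and 43.3 CPM in depleted cells (1.27-fold lower [1.15 to 1.42]), was not called, and turned 1.09-fold higher with no scaling factor. The per-length ratio of Hmox1 to Hmox2, chosen after their values were seen, was 0.0972 [0.0682 to 0.138] in Hdc-CFP+ and 2.20 [2.08 to 2.33] in depleted cells. Of the exon bases of Hmox2 40.2% overlap an antisense gene, Cdip1, and without a stated strand setting reads of the pair cannot be told apart there. Other annotated transcripts hold 41.9% of its 50-base words, counted on either strand.

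Glutathione is made from cysteine, glutamate and glycine, and Slc7a11, Gclc and Gclm, which serve cystine uptake and the rate-limiting ligase, were lower by different amounts. Slc7a11 (ENSMUSG00000027737), the cystine-glutamate exchanger of the plasma membrane, stood at 2.05 CPM in Hdc-CFP+ and 22.4 CPM in depleted cells, from 26 and 966 counts, and was 10.9-fold lower [7.38 to 16.7]. Its partner subunit Slc3a2, which also serves other amino acid transporters, stood at 186 CPM in Hdc-CFP+ and 182 CPM in depleted cells, a ratio of 1.03 [0.979 to 1.07] whose interval holds 1. With 26 counts in the sorted library Slc7a11 had the widest relative interval of the 10, although its direction lay clear of counting error.

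Gclc (ENSMUSG00000032350) encodes the catalytic subunit of glutamate-cysteine ligase and Gclm (ENSMUSG00000028124) the modifier subunit that raises its activity. Gclc stood at 45.4 CPM in Hdc-CFP+ and 314 CPM in depleted cells, from 574 and 13585 counts, and was 6.93-fold lower [6.37 to 7.55]. Gclm stood at 45.9 CPM in Hdc-CFP+ and 138 CPM in depleted cells, from 581 and 5982 counts, and was 3.01-fold lower [2.77 to 3.29]. The intervals of these folds do not overlap. Per length of exon, the ratio of Gclc to Gclm was 1.65 [1.47 to 1.85] in Hdc-CFP+ and 3.79 [3.68 to 3.91] in depleted cells, a 2.30-fold gap [2.04 to 2.59] that holds under any scaling. Of the exon bases of Gclm 4.71% overlap Gm6061 or the antisense Gm17494.

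The targets of the thioredoxin system had the smallest differences. Txnrd1 (ENSMUSG00000020250), the cytosolic selenoenzyme that reduces thioredoxin, stood at 165 CPM in Hdc-CFP+ and 383 CPM in depleted cells, from 2092 and 16570 counts. It was 2.32-fold lower [2.22 to 2.43], and this call was lost with no scaling factor, at a log2 ratio of -0.74, and with totals that leave out the most abundant genes, at -0.89. Srxn1 (ENSMUSG00000032802), the sulfiredoxin that repairs over-oxidised peroxiredoxins, stood at 87.0 CPM in Hdc-CFP+ and 71.3 CPM in depleted cells, from 1101 and 3082 counts. It was 1.22-fold higher [1.14 to 1.31], the only target with more in the sorted library, and this did not reach 2-fold under any of the 7 scalings, where its fold ranged from 1.22 to 1.69. No other annotated gene overlaps exons of Srxn1 or shares its 50-base words. Srxn1 ranked above 92.8% of measured genes by per-length level in the sorted library and above 87.0% in the depleted library.

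The order of the genes by per-length level differed between the libraries. In the depleted library Nqo1 led with 1234 CPM per kb of exon, followed by Ptgr1 with 1218 and Nfe2l2 with 325. Gclc, Txnrd1, Hmox1, Srxn1, Gclm, Keap1 and Slc7a11 followed in that order, with no overlap between the intervals of neighbours. In the sorted library the top of the order was flat: Nqo1 at 34.7, Ptgr1 at 33.8, Nfe2l2 at 33.3 and Srxn1 at 30.9 CPM per kb, each with an interval that overlaps the next. Txnrd1 came next at 23.3 CPM per kb, Gclc at 12.0 and Keap1 at 11.2, the last 2 with overlapping intervals. Gclm stood at 7.30, Hmox1 at 1.49 and Slc7a11 at 0.148 CPM per kb. Exon lengths came from a later annotation than the counts, which touches the levels and not the folds.

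**Figure D2:**
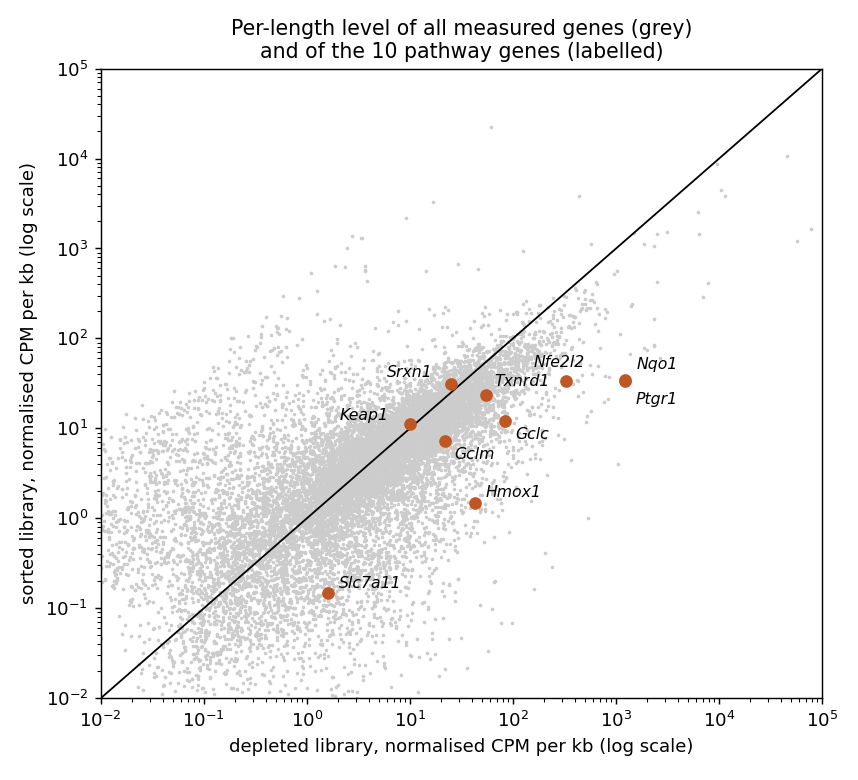
Per-length level, normalised CPM per kb of exon, of all measured genes (grey, both axes on log scales, genes at 0 counts in either library not drawn) in the depleted library (horizontal) and the sorted library (vertical), with the 10 pathway genes labelled and a line of equal levels. Keap1 and Srxn1 lie at the line, and Nqo1, Ptgr1 and Nfe2l2 lie at about the same height, 34.7, 33.8 and 33.3 CPM per kb in the sorted library, while Nfe2l2 lies far to the left of the other 2, at 325 CPM per kb in the depleted library.

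The make-up of the target set differed as well. The 8 targets summed to 144 CPM per kb in Hdc-CFP+ and 2682 in depleted cells, which is 18.7-fold lower in the former. Nqo1 and Ptgr1 made up 91.4% of this sum in depleted and 47.7% in Hdc-CFP+ cells. The other 6 targets together differed 3.05-fold, from 229 to 75.2 CPM per kb. Srxn1 took 0.943% of the target sum in depleted and 21.5% in Hdc-CFP+ cells, and Txnrd1 2.02% and 16.2%. Set against Nfe2l2 itself, a comparison chosen after the values were seen, Nqo1 was 3.80 times as high per length in depleted and 1.04 times in Hdc-CFP+ cells, while Srxn1 was 0.0778 and 0.928 times as high. Relative to Nfe2l2 these targets therefore lay on opposite sides: Nqo1 was lower and Srxn1 higher in the sorted library.

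**Figure D3:**
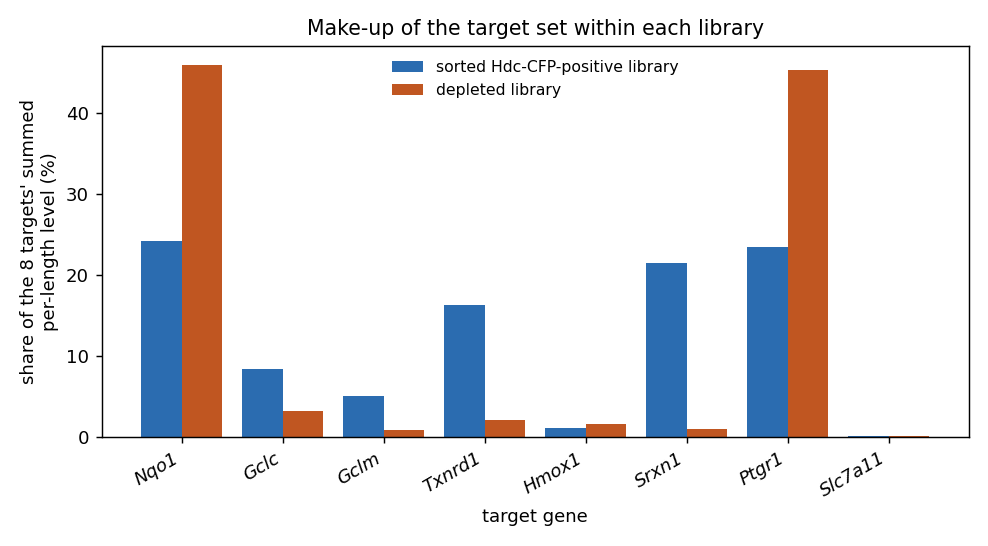
Share in percent of the summed per-length level of the 8 targets that each target takes, as bars for the sorted and the depleted library. Nqo1 and Ptgr1 fill 91.4% of the depleted sum and 47.7% of the sorted sum, in which Srxn1 and Txnrd1 take 21.5% and 16.2%.

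The wider pathway was described with 84 further genes in 7 lists, also drawn up with earlier results known. Of 82 measured, 51 were called lower and 5 higher, beside 24.3% and 20.5% of all measured genes, and the median log2 ratio was -1.49. The lists differed in how many of their genes were called.

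Among 14 genes for partners and turnover of NRF2, 3 were called lower and 3 higher, with a median log2 ratio of 0.11. These counts are near the shares called over all measured genes, 24.3% lower and 20.5% higher, and show nothing particular to the list. The 4 most abundant of them by mean level were within 2-fold under the TMM scaling. Bach1, the next in that order, was not and is given below. Cul3, the ubiquitin ligase scaffold, was 1.03-fold higher [0.979 to 1.09]. Cand1, which exchanges its substrate adaptors, was 1.41-fold higher [1.34 to 1.48], and Nfe2l1, the related factor NRF1, 1.67-fold higher [1.61 to 1.72]. Sqstm1, whose protein p62 draws KEAP1 into autophagy, was 1.56-fold lower [1.51 to 1.62], also not called. It shares 15.5% of its 50-base words with other transcripts, and 17.3% of its exon bases overlap an antisense gene, Mrnip. Bach2, of the BACH family of repressors that compete for the same DNA elements, was 5.90-fold higher [4.48 to 7.81], from 145 and 84 counts. The other 2 called higher, named after their values were seen, were Bach1, the widely expressed repressor of that family, at 3.79-fold [3.58 to 4.01], and Btrc, an adaptor of another ligase that degrades NRF2, at 3.87-fold [3.53 to 4.24]. Those called lower, also named then, were the small MAF genes Maff and Mafk, at 3.91-fold [3.36 to 4.57] and 2.67-fold [2.44 to 2.92], and Dpp3, whose protein binds KEAP1, at 2.06-fold [1.91 to 2.22]. With no scaling factor only Maff of these 3 was called lower, beside 17.1% of all measured genes. Nfe2l1 was called higher with no scaling factor and without the most abundant genes, which brought the list to 4 called higher. Of all measured genes, 28.4% and 25.4% were called higher under these settings, so this count also shows nothing particular to the list.

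Bach1 and Nfe2l2 differed between the libraries in opposite directions. Bach1 stood at 204 CPM in Hdc-CFP+ and 53.9 CPM in depleted cells, from 2585 and 2331 counts. The per-length ratio of Nfe2l2 to Bach1, chosen after their values were seen, was 1.01 [0.945 to 1.07] in Hdc-CFP+ and 37.3 [35.7 to 38.8] in depleted cells. The ratio of Nfe2l2 to Nfe2l1, chosen in the same way, was 0.436 [0.412 to 0.461] in Hdc-CFP+ and 7.11 [6.96 to 7.26] in depleted cells.

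Of 25 measured genes of conjugation, carbonyl reduction and export, 21 were called lower and 0 higher, beside 24.3% and 20.5% of all measured genes. The median log2 ratio of the list was -3.54. At 4-fold or more, 17 were lower, beside 14.0% of all measured genes. Gsta4, a glutathione transferase that takes up lipid alkenals, stood at 104 CPM in Hdc-CFP+ and 2964 CPM in depleted cells and was 28.6-fold lower [27.1 to 30.3]. Aldh3a1, an aldehyde dehydrogenase, stood at 66.5 CPM in Hdc-CFP+ and 2311 CPM in depleted cells and was 34.8-fold lower [32.5 to 37.3], close to Nqo1 and Ptgr1. Ugdh, which makes the sugar donor for glucuronidation, was 10.5-fold lower [9.90 to 11.1], and the microsomal transferase Mgst3 was 23.2-fold lower [21.2 to 25.3]. The export pump Abcc3 was 31.0-fold lower [28.0 to 34.4], and Akr1b8, an aldo-keto reductase, had the largest fold of this list, 46.3-fold [32.6 to 68.2], from 31 and 4899 counts. Nqo2, the paralogue of Nqo1, stood at 13.0 CPM in Hdc-CFP+ and 16.7 CPM in depleted cells, 1.28-fold lower [1.08 to 1.52], which was not called and turned 1.09-fold higher with no scaling factor. The per-length ratio of Nqo1 to Nqo2, chosen after their values were seen, was 10.8 [9.08 to 12.8] in Hdc-CFP+ and 299 [278 to 322] in depleted cells.

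NADPH feeds the reactions of Nqo1, Txnrd1 and glutathione reductase. Of 7 genes for its supply, 6 were called lower and 0 higher, beside 24.3% and 20.5% of all measured genes. The median log2 ratio of the list was -2.69. Tkt, the transketolase of the pentose phosphate pathway, stood at 144 CPM in Hdc-CFP+ and 895 CPM in depleted cells and was 6.20-fold lower [5.92 to 6.51]. Pgd, the phosphogluconate dehydrogenase, was 9.00-fold lower [8.43 to 9.61], and G6pdx, the enzyme at the entry of that pathway, 8.18-fold lower [7.39 to 9.09]. The cytosolic malic enzyme gene Me1 had the largest fold of the list, 19.8-fold [16.7 to 23.7], and shares 28.3% of its 50-base words with other transcripts. Pgls, the lactonase between G6pdx and Pgd, named after its value was seen, was 1.17-fold lower [1.04 to 1.31], not called, and turned higher with no scaling factor, at 1.19-fold. Of the exon bases of Pgls 20.6% overlap another gene, Fam129c, and of those of G6pdx 13.6% overlap the antisense Ikbkg.

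Of 14 genes of glutathione supply and use, 8 were called lower and 2 higher, beside 24.3% and 20.5% of all measured genes. The median log2 ratio of the list was -1.29. With no scaling factor 4 were called higher, Gpx3 and Ggct being the added ones, named after their values were seen. That count is near the 28.4% of all measured genes called higher with no factor and shows nothing particular to the list. Gss, the synthetase that acts after glutamate-cysteine ligase, was 5.53-fold lower [4.92 to 6.23] and Gsr, glutathione reductase, 6.15-fold lower [5.68 to 6.66]. Of the exon bases of Gss 15.4% overlap antisense genes. The glutathione peroxidase genes Gpx1 and Gpx2 were 6.06-fold [5.66 to 6.50] and 7.14-fold [6.13 to 8.36] lower. The 2 called higher under the TMM scaling, also named then, were Chac1 and Ggt1. Chac1 was 3.46-fold higher [2.78 to 4.29], from 174 and 172 counts, and Ggt1 2.20-fold [1.42 to 3.36], from 38 and 59 counts. Their number is not above the 20.5% share and shows nothing particular to the list. Chac2, of the same family as Chac1 and also named then, was 2.83-fold lower [2.38 to 3.38].

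Among 11 thioredoxin and peroxiredoxin genes, 7 were called lower and 0 higher, beside 24.3% and 20.5% of all measured genes. The median log2 ratio of the list was -1.09. With no scaling factor 3 were called lower, beside 17.1% of all measured genes. Prdx1, a cytosolic peroxiredoxin, and Txn1, the cytosolic thioredoxin, were 4.69-fold [4.43 to 4.97] and 4.68-fold [4.32 to 5.08] lower. Prdx5 was 2.14-fold lower [2.02 to 2.26], and Txnip, an inhibitor of thioredoxin, 2.30-fold lower [2.21 to 2.39], both calls that were lost with no scaling factor. Prdx2 and Prdx6, named after their values were seen, were not called either way, at ratios of 1.05 [0.987 to 1.12] and 1.23 [1.16 to 1.31]. Of the exon bases of Prdx5, Txnip and Prdx2, 19.1%, 19.4% and 11.5% overlap antisense genes. Txnrd2, the mitochondrial reductase, was 1.79-fold lower [1.51 to 2.14], not called, and the per-length ratio of Txnrd1 to Txnrd2, chosen after their values were seen, was 8.33 [7.08 to 9.80] in Hdc-CFP+ and 10.8 [10.1 to 11.5] in depleted cells.

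Of 8 haem and iron genes, 4 were called lower and 0 higher, beside 24.3% and 20.5% of all measured genes. The median log2 ratio of the list was -0.90. With no scaling factor 3 were called lower and 1, Slc48a1, higher, beside 17.1% and 28.4% of all measured genes. Slc40a1, the iron exporter ferroportin, was 9.29-fold lower [7.61 to 11.5], beside the macrophage genes given above, whose part in it was not tested, and Blvrb, a biliverdin reductase, 8.74-fold lower [7.40 to 10.4]. The ferritin genes Fth1 and Ftl1 were 2.65-fold [2.57 to 2.74] and 4.41-fold [4.08 to 4.78] lower. The call of Fth1 was lost with no scaling factor. Ftl1 shares 58.4% of its 50-base words with other transcripts, and 34.6% of its exon bases overlap other genes. Fech, which inserts iron into haem, had a ratio of 0.990 [0.914 to 1.07], and Slc48a1, a haem transporter, was 1.67-fold higher [1.56 to 1.79], neither called. Of the 3 measured genes for superoxide dismutases and catalase, Cat was 10.5-fold lower [9.10 to 12.1], Sod1 was 2.89-fold lower [2.69 to 3.12], and Sod2, the mitochondrial enzyme, was 1.56-fold lower [1.46 to 1.67] and not called. Sod3, with 2 and 8 counts, was not measured.

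**Figure D4:**
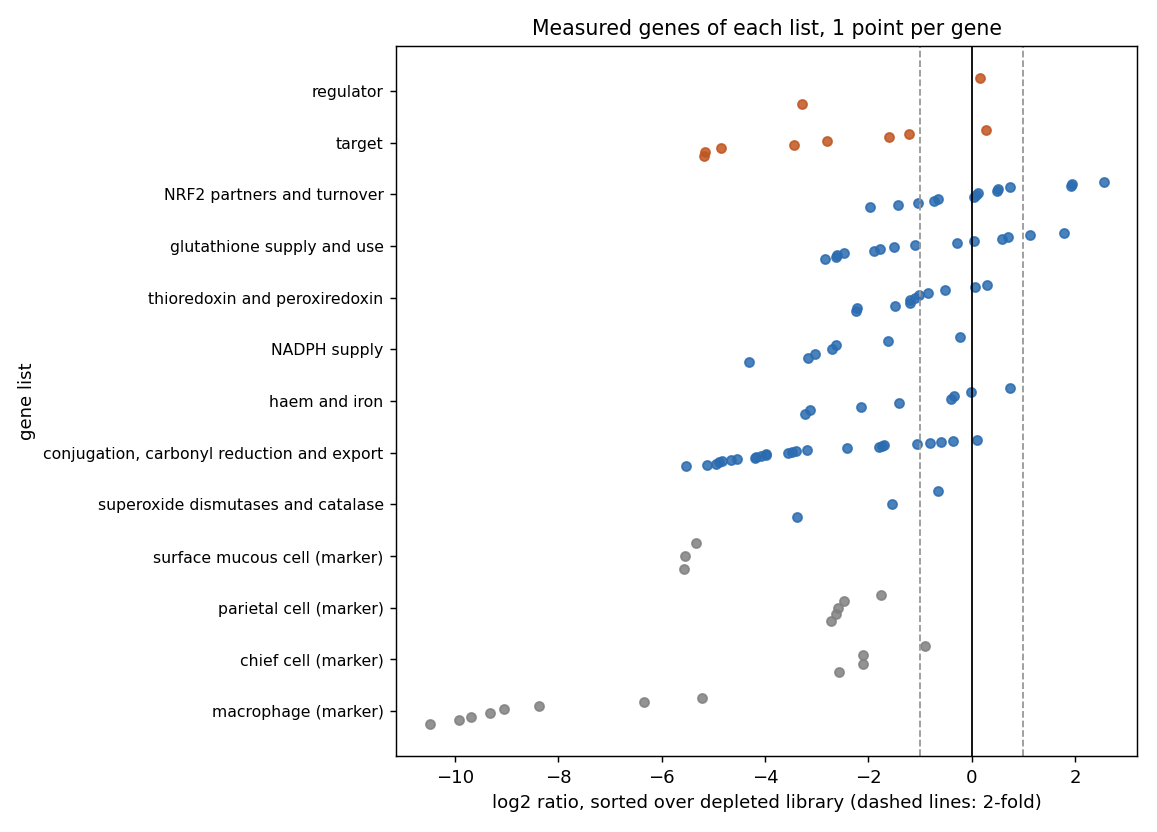
Log2 ratio of the sorted over the depleted library for each measured gene of the regulators and targets (orange), of the 7 pathway lists (blue) and of the surface mucous, parietal, chief cell and macrophage markers (grey), with 1 point per gene, a solid line at equal levels and dashed lines at 2-fold. The targets spread from -5.17 to 0.29, conjugation and NADPH genes lie mostly left of the lower dashed line, and NRF2 partners lie on both sides of 0.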

How the data were processed

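The authors deposited raw read counts per Ensembl gene identifier, 1 file per library. TopHat2 2.0.07 aligned the reads to mm9 and HTSeq counted them, per the submitters' processing notes; the strand setting of HTSeq and the annotation are not given in the sources used here. All 5 summary rows, which name no gene, stayed out of all totals: 9.20% of counted alignments in Hdc-CFP+ and 4.91% in depleted cells lay outside genes, 1.45% and 1.11% matched several genes, and 24.2% and 34.3% were not unique.

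Symbols and exon-union lengths came from GENCODE M21, which named 32642 of 37681 identifiers and 140 of 141 listed genes. Counts were scaled with edgeR 4.0.16 (R 4.3.3) TMM factors over all genes, 1.18 in Hdc-CFP+ and 0.849 in depleted cells. Folds carry exact Clopper-Pearson and levels exact Poisson 95% intervals, computed with scipy 1.17.1. Ratios of genes within a library carry log-normal counting intervals. With 0 counts, up to 3 remain possible, which is 0.237 CPM in Hdc-CFP+ and 0.0694 CPM in depleted cells. For medians of log2 ratios 0.5 was added to the counts, split by library size. The share of each gene's 50-base words found in transcripts of other genes, on either strand, was computed from M21. It includes words where exons of genes overlap. Reads aligning to more than 1 place were not counted. The fold and interval code was tested on simulated data.

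The 10 genes, the lists and the rules were chosen with earlier results of these data known. The rule for names took all 10 genes, the 4 most abundant genes of each pathway list and those called at 4-fold or more, and markers; the text gives a part of these. Any other name was picked with its value in view. Alternatives were 6 other scalings (1 of them, TMM over measured genes, added after seeing the data), minimum counts of 1 and 50, and calls at 1.5-fold and 4-fold.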

Additional observations from a re-analysis of the deposited data

How the results depend on the processing

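Of the 8 pathway genes called lower, all but Txnrd1 were also called with no scaling factor and with totals that leave out the 20 most abundant genes of each library, and all 8 with DESeq2 1.42.0 size factors, upper-quartile factors and both other TMM fits. None of the 10 was called higher under any scaling, minimum count or fold tried. No p-value, adjusted or not, was computed with any tool, since each group held 1 library. Scaling moves every log2 ratio by the same amount, and the median of all genes shifted by 0.47 with no factor, 0.32 without the most abundant genes, 0.11 with upper-quartile factors and 0.11 with TMM over measured genes. The median log2 ratio of the 10 genes was -3.04, and -2.57, -2.72, -2.94 and -2.93 under these settings. Over all genes 54.2% of calls were lower, and 37.6% with no factor and 42.9% without the most abundant genes. Of all measured genes, 17.1% were called lower and 28.4% higher with no factor. Without the most abundant genes these shares were 19.1% and 25.4%. Of the pathway lists, 51 genes were called lower and 5 higher. With no factor 42 were lower and 9 higher, and without the most abundant genes 44 and 8. At 1.5-fold 57 were lower and 9 higher, beside 32.2% and 26.2% of all measured genes. At 4-fold 32 were lower and 1 higher, beside 14.0% and 13.2% of all measured genes. The depth of the sorted library limits Slc7a11 and Hmox1, with 26 and 33 counts there. No paired analysis was possible because each group held 1 library, and no library could be left out.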
